A study of Mus musculus with 6 samples.

Results

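Calmodulin, the calcium/calmodulin-dependent kinase CaMKII and the calcium/calmodulin-dependent phosphatase calcineurin were followed through 9 genes in mouse gastrocnemius muscle. The genes were the calmodulin genes *Calm2* and *Calm3*, the CaMKII genes *Camk2a*, *Camk2b* and *Camk2g*, the calcineurin catalytic genes *Ppp3ca* and *Ppp3cb* with the regulatory gene *Ppp3r1*, and *Rcan1*, a calcineurin inhibitor that is also a target of the transcription factor NFAT. They were chosen by name and function, with earlier results of these data known, and are 9 of the 12353 genes in the table. The muscles came from 3 Nogo-/- mice (Samples 4, 5 and 6), in which the Nogo gene *Rtn4* is knocked out, and from 3 Nogo+/+ mice (Samples 1, 2 and 3), with 1 polyadenylated RNA library per mouse. No treatment was given to either group in the sources used here, which do not name the age, sex or litter of these 6 mice.

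Calmodulin is a small calcium sensor that several genes encode with the same amino acid sequence, so that the genes differ in how they are expressed and not in the protein they give. In muscle, calcium released for contraction loads calmodulin, which then activates CaMKII, a multimeric kinase that phosphorylates calcium-handling proteins and class IIa histone deacetylases, and calcineurin. Calcineurin is a dimer of a catalytic and a regulatory subunit that removes phosphate from NFAT factors, lets them enter the nucleus, and is known for its part in the slow fiber program; NFAT in turn induces a short form of the calcineurin inhibitor *Rcan1*.

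The coding sequences of the calmodulin genes are shown because fragments can be assigned to 1 of the genes only through the bases that differ. *Calm2* lies on chromosome 17 (GRCm38, chr17:87433412-87446935, minus strand) and *Calm3* on chromosome 7 (chr7:16915379-16924114, minus strand). Over the 447 coding bases without the stop codon, 78 bases differed and 82.6% were identical, whereas 0 of the 149 residues differed. The longest run of identical bases was 17 bases, and 74 of the differing bases stood at the last position of a codon. The first 150 coding bases of each gene, which lie within chr17:87435819-87446795 and chr7:16917613-16923843 with introns in between, are given 5′ to 3′ from the GENCODE M21 transcripts on GRCm38, with the 23 bases that differ in capitals:
Calm2: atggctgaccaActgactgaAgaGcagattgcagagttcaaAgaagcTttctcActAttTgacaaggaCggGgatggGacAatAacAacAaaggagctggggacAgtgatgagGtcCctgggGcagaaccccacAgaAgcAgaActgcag
Calm3: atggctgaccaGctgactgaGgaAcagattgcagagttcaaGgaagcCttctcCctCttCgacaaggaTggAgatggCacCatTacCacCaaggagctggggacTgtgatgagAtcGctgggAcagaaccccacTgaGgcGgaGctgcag
The differences are spread over the whole stretch, and the untranslated ends of the transcripts differ as well. Whether the authors' quantification moved any fragments between these genes or further calmodulin copies was not tested.

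*Rtn4* was listed at 0.423, 0.312 and 0.368 FPKM (fragments scaled to transcript length and to the depth of the library) in the Nogo-/- muscles, against 414, 429 and 425 FPKM in the Nogo+/+ muscles. The level of the knocked-out gene thus followed the labels in all 6 libraries. The depth recovered from the FPKM was about 13466000 to 14412000 fragments per library. With the length of the longest coding transcript of each gene, the 9 genes rested on approximately 2112 to 11235 fragments per gene and library. The counting error was then at most 2.18%, and shorter transcripts would mean fewer fragments and a larger error. Muscle fiber markers (8 of 8 measured) summed to 22877 to 24235 FPKM in Nogo-/- and 24053 to 24613 FPKM in Nogo+/+ muscle, and none of the 8 passed the test. Some markers of other tissue differed between single libraries: skin epithelium markers (9 of 12 measured) summed to 267 FPKM in Sample 6 and to 6.20 to 17.8 FPKM in the other 5 libraries, and fat cell markers (7 of 7) to 896 FPKM in Sample 4 and to 403 to 570 FPKM in the other 5. Endothelial markers (5 of 5) summed to 72.6 to 87.4 FPKM in Nogo-/- and 103 to 115 FPKM in Nogo+/+ muscle. Limma called 4 of the 5 lower in Nogo-/- at an adjusted p under 0.05, against 2.75% of all genes.

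The 9 genes were abundant in all 6 libraries, and limma called none of them changed between the groups at an adjusted p under 0.05 (0 of 9, against 4.64% of all genes). At an unadjusted p under 0.05 there was 1 of 9 (*Calm3*), against 20.5% of all genes, and the FPKM of the groups did not overlap for 2 of 9 (*Calm3* and *Ppp3r1*), against 25.9% of all genes. Under 3 alternative settings *Calm3* passed, and *Rcan1* passed without Sample 4, as described for each gene. The median log2 fold change of the 9 genes was -0.06, and that of all genes was -0.01. Their median absolute log2 fold change was 0.06 and that of all genes 0.10. Fold changes are differences of log2(normalized FPKM + 1), Nogo-/- minus Nogo+/+. In bulk muscle, fewer cells of a type and less RNA per cell cannot be told apart.

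**Figure D1:**
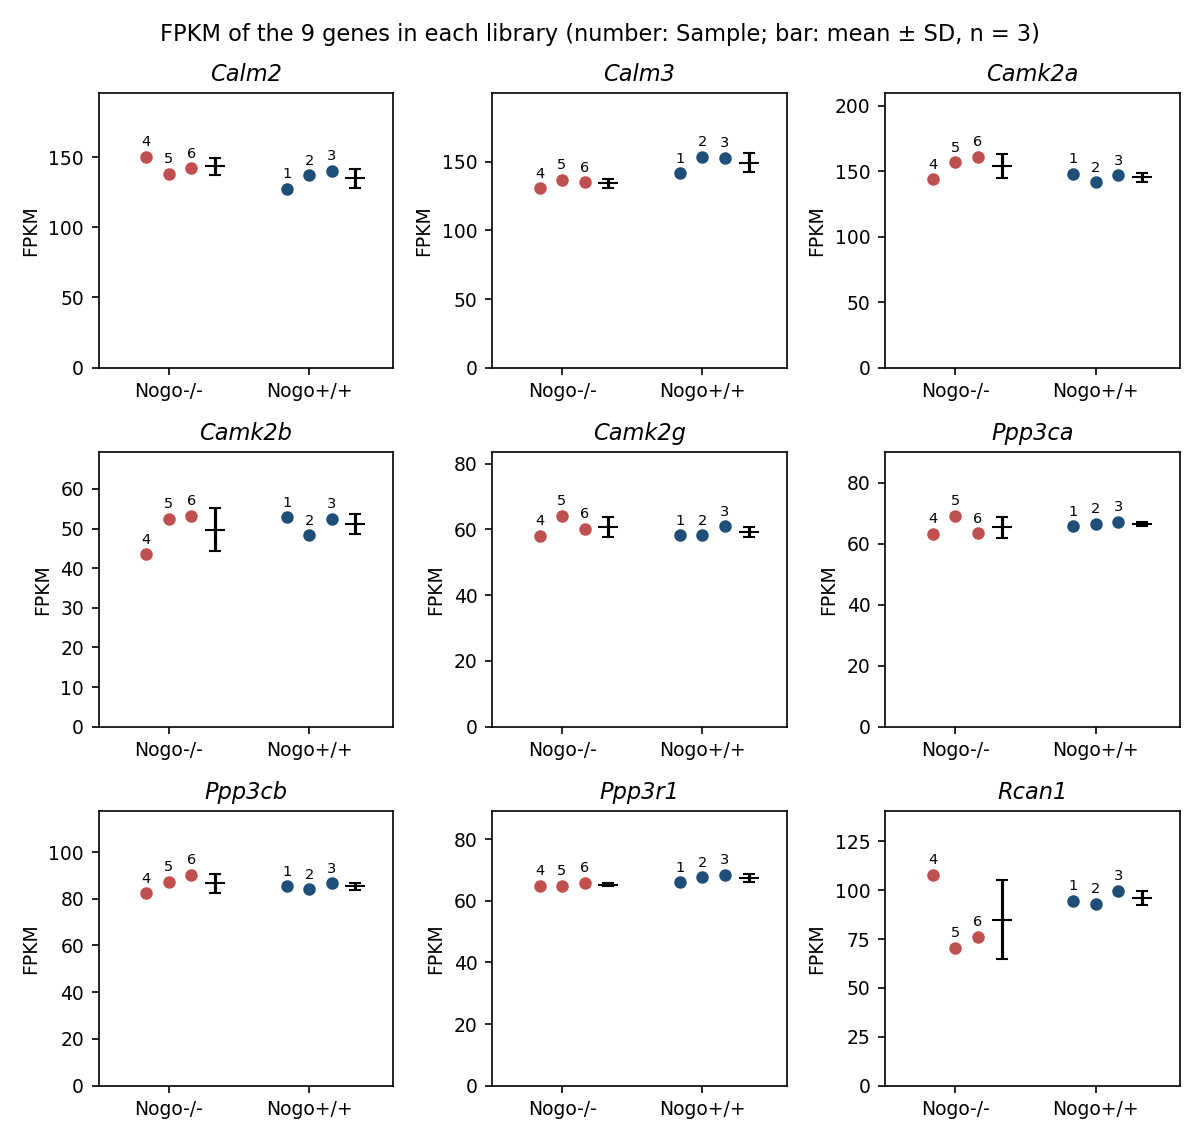
FPKM of the 9 genes in each library, with the 3 Nogo-/- libraries to the left of the 3 Nogo+/+ libraries in each panel and bars for the mean ± SD (n = 3). The Nogo-/- points lie below all Nogo+/+ points for *Calm3* and *Ppp3r1*, and *Rcan1* has 1 Nogo-/- library at 108 FPKM above all the others.

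*Calm2* had 150, 138 and 142 FPKM in the Nogo-/- muscles, against 127, 137 and 140 FPKM in the Nogo+/+ muscles. Sample 4 was the highest and Nogo+/+ Sample 1 the lowest, and the groups overlapped. The log2 fold change was 0.05 (SE 0.05, 95% interval -0.06 to 0.16, adjusted p = 0.615 in limma), which allows a Nogo-/- level between 0.961 and 1.11 times that in Nogo+/+ muscle. *Calm3* had 131, 137 and 135 FPKM in the Nogo-/- muscles, against 142, 154 and 153 FPKM in the Nogo+/+ muscles. Every Nogo-/- library was below every Nogo+/+ library, and the mean was 134 ± 3.10 FPKM in Nogo-/- and 149 ± 6.66 FPKM in Nogo+/+ muscle (SD, n = 3 each), a ratio of 0.898. The log2 fold change of *Calm3* was -0.19 (SE 0.04, 95% interval -0.29 to -0.09), with an adjusted p of 0.0517 in limma, just outside the threshold. Adjusted p was 0.0477 with a pseudocount of 0.1, 0.0475 among genes with a mean FPKM of at least 1 and 0.0398 with sample weights, and over all alternatives it ranged between 0.0398 and 0.203. What the lower endothelial markers of the Nogo-/- muscles contributed to this difference was not tested.

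*Calm2* and *Calm3* contributed nearly equal parts of their sum, and in opposite order in the groups. *Calm3* made up 46.5%, 49.7% and 48.7% of *Calm2* + *Calm3* in the Nogo-/- muscles, against 52.6%, 52.8% and 52.1% in the Nogo+/+ muscles. *Calm2* was thus the larger part in each Nogo-/- library and *Calm3* in each Nogo+/+ library. The mean *Calm3* share was 48.3 ± 1.63% in Nogo-/- and 52.5 ± 0.364% in Nogo+/+ muscle (SD, n = 3 each), a difference of -4.20 percentage points that ranged between -4.91 and -3.31 points when each library was left out in turn. A two-sided exact permutation test gave p = 0.1, the smallest that 3 against 3 mice allow, and 0.333 after adjustment over the 10 shares, ratios and sums compared. The sum of *Calm2* and *Calm3* was 281, 275 and 277 FPKM in Nogo-/-, against 269, 291 and 293 FPKM in Nogo+/+ muscle, and the groups overlapped (exact permutation p = 0.4, adjusted p = 0.571). The shares and the sum cover *Calm2* and *Calm3* and are not those of all calmodulin transcripts. A test of 3 against 3 mice could not pass the threshold for any of these 10 quantities.

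**Figure D2:**
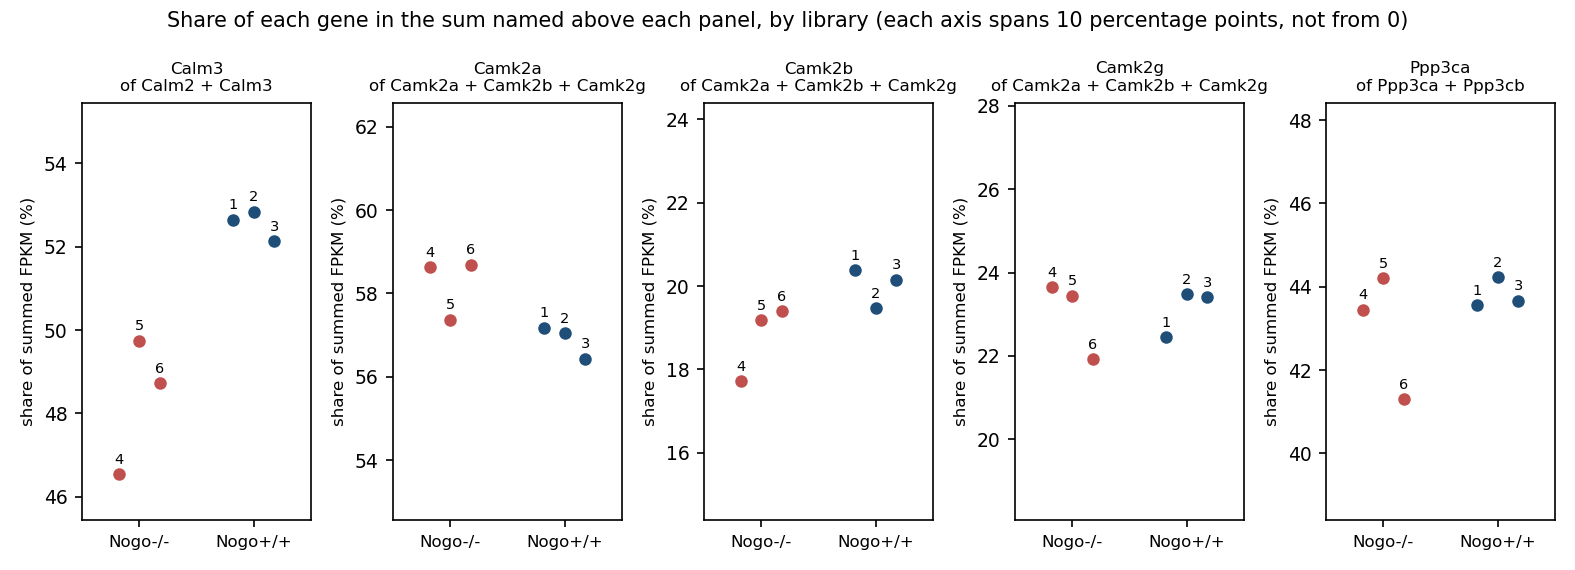
Share of each gene in the summed FPKM of the genes named above each panel, in percent, for each library, with Nogo-/- to the left of Nogo+/+. The *Calm3* share is 46.5% to 49.7% in the Nogo-/- libraries and 52.1% to 52.8% in the Nogo+/+ libraries, and the *Camk2a* and *Camk2b* shares differ by less.

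The genes whose pattern was most like that of *Calm3* over the 6 libraries, by Pearson's r of the normalized log2 values, were *Fgfr1op2* (r = 0.998), *Naa25* (r = 0.996) and *Dync1li1* (r = 0.994). These are the highest of all the genes in the table with 6 points each, and are given as a description. The list of calmodulin and calmodulin-like genes held 5 measured genes of 6 listed, *Calm2* and *Calm3* among them, and none of the 5 passed the test in either direction. The other 3, *Calml4*, *Calm4* and *Calml3*, had lower levels. *Calml4*, a calmodulin-like gene, had 3.40, 1.79 and 2.64 FPKM in Nogo-/-, against 1.77, 1.35 and 1.05 FPKM in Nogo+/+ muscle (log2 fold change 0.55, adjusted p = 0.125 in limma). *Calm4*, a calmodulin-related gene of the skin, had 0.236, 0.828 and 21.4 FPKM in Nogo-/-, against 0.158, 0.968 and 0.377 FPKM in Nogo+/+ muscle. Its high library was Sample 6, the library with the high skin marker sum, and *Calml3*, an epithelial calmodulin-like gene, was also highest there, at 1.58 FPKM against at most 0.208 FPKM elsewhere. What skin RNA contributed to these values was not tested.

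*Camk2a* had the highest level of *Camk2a*, *Camk2b* and *Camk2g* in every library, and none of the 3 passed the test. *Camk2a* (chr18:60925618-60988152, plus strand) had 144, 157 and 161 FPKM in the Nogo-/- muscles, against 148, 142 and 147 FPKM in the Nogo+/+ muscles. Sample 4 lay among the Nogo+/+ values and the other two Nogo-/- libraries above them (log2 fold change 0.05, SE 0.05, 95% interval -0.07 to 0.16, adjusted p = 0.669 in limma). In skeletal muscle this gene also gives the anchoring protein alphaKAP from an internal start, and a level per gene does not separate it from the kinase. *Camk2b* (chr11:5969644-6066362, minus strand), which encodes the beta subunit, had 43.5, 52.5 and 53.2 FPKM in Nogo-/-, against 52.8, 48.3 and 52.4 FPKM in Nogo+/+ muscle. Its lowest library was Sample 4 and its highest another Nogo-/- library, Sample 6 (log2 fold change -0.08, SE 0.08, 95% interval -0.28 to 0.11, adjusted p = 0.648), and without Sample 4 the log2 fold change was 0.02. *Camk2g* (chr14:20734875-20794088, minus strand), which encodes the gamma subunit, had 58.1, 64.1 and 60.1 FPKM in Nogo-/-, against 58.2, 58.3 and 60.9 FPKM in Nogo+/+ muscle. Sample 5 was the highest and the groups overlapped. The log2 fold change was near 0 (95% interval -0.11 to 0.11, adjusted p = 0.991 in limma), and it was 0.04 without quantile normalization.

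*Camk2a* gave 58.6%, 57.4% and 58.7% of *Camk2a* + *Camk2b* + *Camk2g* in the Nogo-/- muscles, against 57.2%, 57.0% and 56.4% in the Nogo+/+ muscles. The lowest Nogo-/- share was just above the highest Nogo+/+ share, and the means differed by 1.34 percentage points (exact permutation p = 0.1, adjusted p = 0.333). *Camk2b* gave 17.7%, 19.2% and 19.4% in Nogo-/-, against 20.4%, 19.5% and 20.2% in Nogo+/+ muscle. The groups did not overlap here either, by a margin smaller than the spread within each group (difference -1.23 points, exact permutation p = 0.1, adjusted p = 0.333). The difference was -0.71 points without Sample 4, and ranged between -1.55 and -0.71 points with each library left out in turn. The *Camk2g* share averaged 23.0 ± 0.947% in Nogo-/- and 23.1 ± 0.581% in Nogo+/+ muscle (SD, n = 3 each). These shares, and the sum, cover *Camk2a*, *Camk2b* and *Camk2g* and are not those of all CaMKII transcripts. The sum of the 3 genes came to 246, 273 and 274 FPKM in Nogo-/-, against 259, 248 and 260 FPKM in Nogo+/+ muscle. Sample 4 had the lowest sum and the other two Nogo-/- libraries the highest (exact permutation p = 0.5, adjusted p = 0.625). The CaMKII inhibitor genes *Camk2n1* (log2 fold change 0.04, adjusted p = 0.819 in limma) and *Camk2n2* (adjusted p = 0.998) were low, at 0.955 to 3.99 FPKM over both genes and all libraries.

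None of the 4 measured calcineurin subunit genes passed the test in limma (at an unadjusted p under 0.05 there were 0 as well, against 20.5% of all genes). *Ppp3ca* (chr3:136670124-136937727, plus strand), the alpha catalytic subunit, had 63.3, 69.1 and 63.5 FPKM in the Nogo-/- muscles, against 65.8, 66.6 and 67.2 FPKM in the Nogo+/+ muscles. The Nogo-/- values fell on both sides of the Nogo+/+ values (log2 fold change -0.06, SE 0.04, 95% interval -0.17 to 0.04, adjusted p = 0.477 in limma). *Ppp3cb* (chr14:20499364-20546573, minus strand), the beta catalytic subunit, had 82.4, 87.3 and 90.3 FPKM in Nogo-/-, against 85.3, 84.0 and 86.7 FPKM in Nogo+/+ muscle. Again the Nogo-/- libraries spanned the wider range (log2 fold change -0.02, SE 0.05, 95% interval -0.14 to 0.10, adjusted p = 0.867, and 0.02 without quantile normalization). *Ppp3r1* (chr11:17159263-17200375, plus strand), the regulatory subunit, which binds calcium itself, had 64.95, 64.94 and 65.96 FPKM in Nogo-/-, against 66.01, 67.71 and 68.48 FPKM in Nogo+/+ muscle. Every Nogo-/- library was below every Nogo+/+ library, by a small margin between the nearest pair, and the difference did not pass (log2 fold change -0.08, SE 0.04, 95% interval -0.18 to 0.01, adjusted p = 0.325 in limma). *Ppp3cc*, the gamma catalytic subunit, was lower in level, at 11.4 ± 0.823 FPKM in Nogo-/- and 11.6 ± 0.901 FPKM in Nogo+/+ muscle (SD, n = 3 each; adjusted p = 0.685 in limma).

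*Ppp3ca* supplied the smaller part of the *Ppp3ca* + *Ppp3cb* transcripts in every library, at 43.4%, 44.2% and 41.3% in Nogo-/-, against 43.6%, 44.2% and 43.7% in Nogo+/+ muscle. Sample 6 had the lowest share, and the groups overlapped (exact permutation p = 0.4, adjusted p = 0.571). The catalytic sum averaged 152 ± 5.58 FPKM in Nogo-/- and 152 ± 1.79 FPKM in Nogo+/+ muscle (SD, n = 3 each). For every 100 FPKM of that sum there were 44.6, 41.5 and 42.9 FPKM of *Ppp3r1* in Nogo-/-, against 43.7, 45.0 and 44.5 FPKM in Nogo+/+ muscle, a difference of -1.40 with overlapping groups (exact permutation p = 0.3, adjusted p = 0.571). That difference was -2.19 without Sample 4 and -0.66 without Sample 5.

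**Figure D3:**
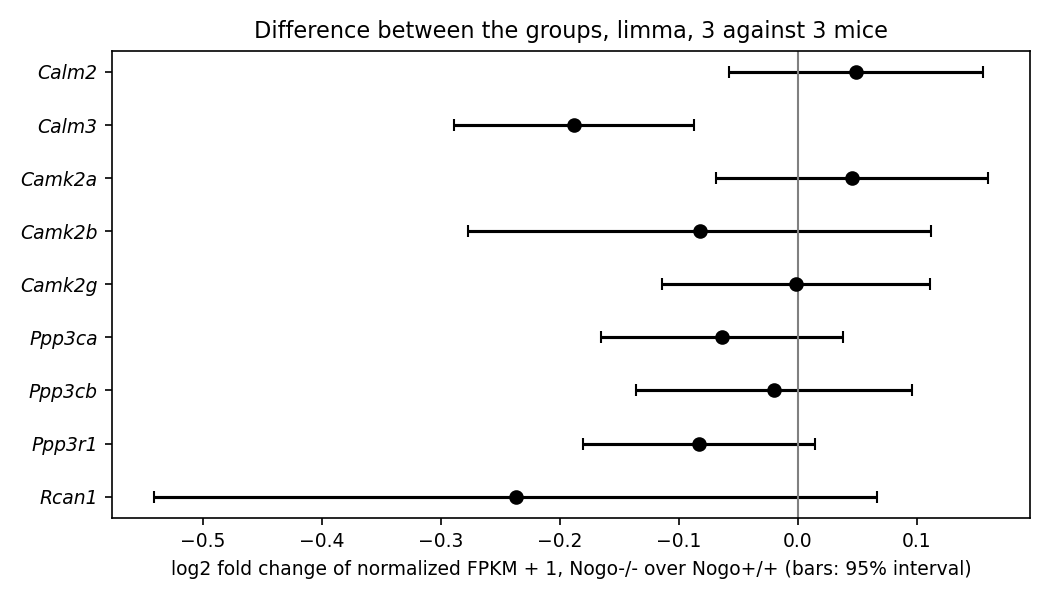
Log2 fold change of each of the 9 genes, Nogo-/- over Nogo+/+, from limma, with bars for the 95% interval before adjustment over genes. The interval of *Calm3*, -0.29 to -0.09, is the one that leaves out 0, and that of *Rcan1*, -0.54 to 0.07, is the widest.

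*Rcan1* (chr16:92391953-92470867, minus strand) encodes a protein that binds and inhibits calcineurin, and is transcribed from separate starts. The upstream start gives the long form, and the downstream start is the one known to respond to NFAT. The 250 bases before each start are shown because they differ in the core letters of the NFAT motif, GGAAA, searched on both strands as GGAAA or TTTCC, letters that do not overlap one another and that are printed in capitals. They are from RefSeq on GRCm38.p6, written 5′ to 3′ on the strand of the gene, at chr16:92466170-92466419 for the upstream start and chr16:92400079-92400328 for the downstream start:
Rcan1 upstream start: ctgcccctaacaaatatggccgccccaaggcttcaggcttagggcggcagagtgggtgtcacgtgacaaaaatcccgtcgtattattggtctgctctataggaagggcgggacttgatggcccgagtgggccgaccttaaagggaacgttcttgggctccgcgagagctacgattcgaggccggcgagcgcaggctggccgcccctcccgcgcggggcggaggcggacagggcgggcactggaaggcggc
Rcan1 downstream start: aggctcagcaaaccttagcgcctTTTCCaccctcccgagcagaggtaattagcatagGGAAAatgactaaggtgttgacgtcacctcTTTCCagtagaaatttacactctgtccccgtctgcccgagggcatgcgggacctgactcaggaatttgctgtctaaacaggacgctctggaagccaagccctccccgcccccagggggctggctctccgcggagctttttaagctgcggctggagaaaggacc
The upstream window held 0 matches and the downstream window 3, of which 1 read GGAAA and 2 read TTTCC. Of 32817 RefSeq promoter windows of the same 250 bases, 55.6% held at least 1 match and 6.38% at least 3. A match is a description of letters, and a level per gene does not separate the transcripts of the starts.

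*Rcan1* had 108, 70.7 and 76.3 FPKM in the Nogo-/- muscles, against 94.6, 93.1 and 99.8 FPKM in the Nogo+/+ muscles. Samples 5 and 6 were below all Nogo+/+ libraries and Sample 4 was above all of them, so that the SD was 20.1 FPKM in Nogo-/- and 3.55 FPKM in Nogo+/+ muscle (n = 3 each). The log2 fold change was -0.24 (SE 0.13, 95% interval -0.54 to 0.07, adjusted p = 0.367 in limma). Without Sample 4, the library with the highest fat marker sum, it was -0.41 (SE 0.06, adjusted p = 0.0149 in limma), and over all 6 fits that left out a library it ranged between -0.41 and -0.11, with adjusted p between 0.0149 and 0.66. What fat cell RNA contributed to the value of Sample 4 was not tested. Relative to 100 FPKM of the catalytic calcineurin genes, *Rcan1* came to 74.1, 45.2 and 49.6 in Nogo-/-, against 62.6, 61.8 and 64.9 in Nogo+/+ muscle, with the same split among the Nogo-/- libraries (difference -6.83, exact permutation p = 0.4, adjusted p = 0.571). That difference was -15.7 without Sample 4, -1.28 without Sample 5 and -3.49 without Sample 6.

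Other genes that calmodulin, CaMK and calcineurin signaling pass through were read from 10 lists, chosen with earlier results of these data known. The lists held 90 measured genes, of which 81 are not among the 9. Of these 81 genes, 2 were higher and 5 lower in Nogo-/- muscle, or 8.64%, against 4.64% of all genes (1.89% higher and 2.75% lower). Lists chosen in that way cannot show an excess over all genes, so the shares are given as a description. Of all called genes 40.7% were higher, and 56.3% without quantile normalization. The 7 genes were *Mylk4*, *Dapk1*, *Lmcd1*, *Dyrk1b*, *Dyrk2*, *Mb* and *Rrad*, and over the 81 genes the log2 fold change had a median of -0.04. No gene passed the threshold in limma on the lists of calmodulin and calmodulin-like genes, CaMKII genes and inhibitors, or calcineurin subunits. The same held for NFAT factors, and for MEF2 factors with class IIa histone deacetylases. At an unadjusted p under 0.05 in limma these lists, in that order, had 2 of 5, 0 of 5, 0 of 4, 1 of 5 and 1 of 7 measured genes. The share of all genes was 20.5%. The 2 on the calmodulin list were *Calm3*, which is among the 9, and *Calml4*.

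**Figure D4:**
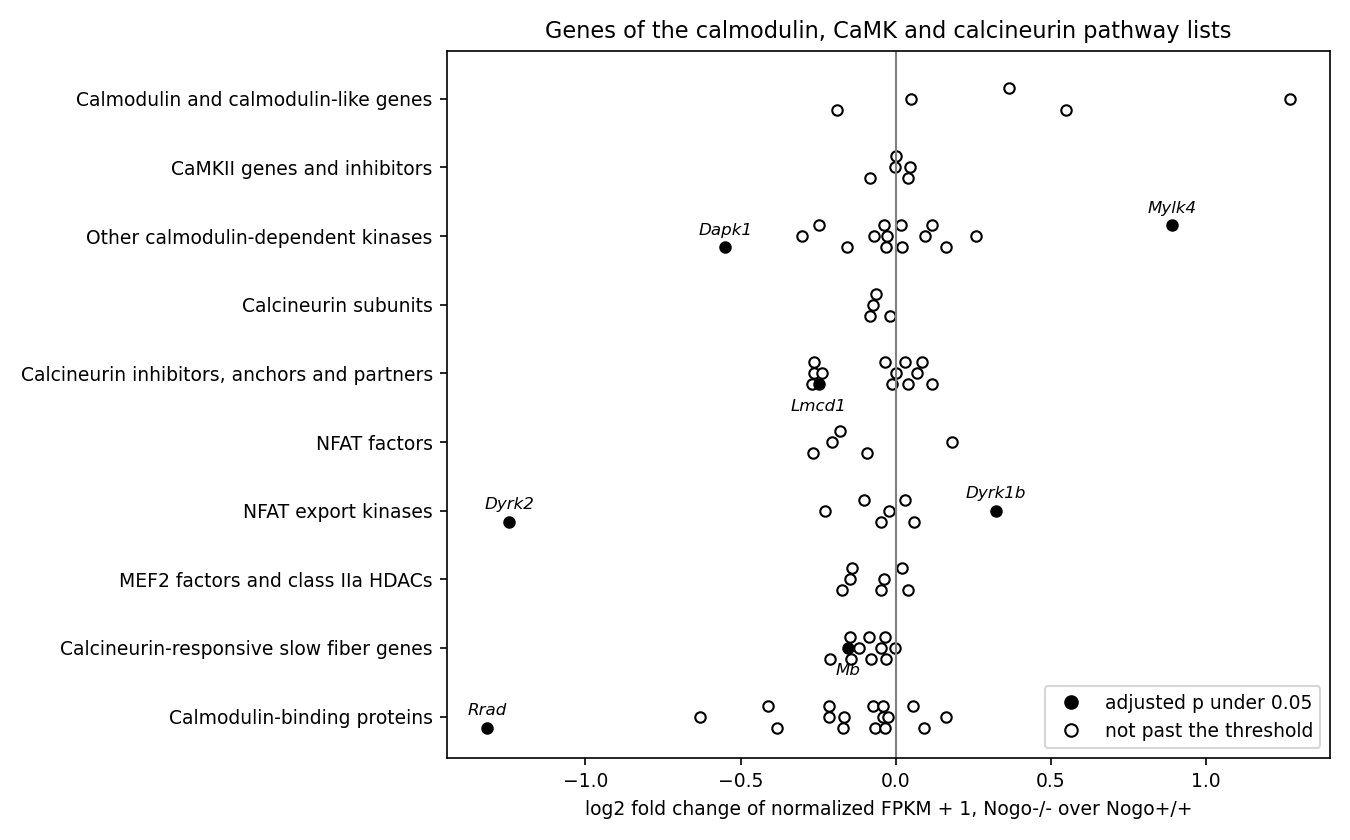
Log2 fold change of normalized FPKM + 1, Nogo-/- over Nogo+/+, for the 90 measured genes of the 10 lists, 1 point per gene, with filled points for an adjusted p under 0.05 in limma. The 7 filled and named points are the 2 genes higher and 5 genes lower in Nogo-/- muscle, from *Mylk4* at 0.89 to *Rrad* at -1.32.

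On the list of other calmodulin-dependent kinases and kinase subunits, 1 of 15 measured genes was higher and 1 lower, against 1.89% and 2.75% of all genes. Whether each product on this list depends on calmodulin was not tested. *Mylk4*, a kinase of the myosin light chain kinase family, had 403, 471 and 450 FPKM in the Nogo-/- muscles, against 204, 243 and 250 FPKM in the Nogo+/+ muscles. It rose by 0.89 on the log2 scale (SE 0.09, adjusted p = 0.00111 in limma) and passed in all 6 fits that left out a library. *Mylk2*, the skeletal muscle myosin light chain kinase, had 339, 389 and 354 FPKM in Nogo-/-, against 329, 294 and 305 FPKM in Nogo+/+ muscle. Its groups did not overlap, as for 25.9% of all genes, and the difference did not pass (0.16, adjusted p = 0.174 in limma). *Dapk1*, a death-associated protein kinase, had 2.00, 1.61 and 1.08 FPKM in Nogo-/-, against 2.70, 2.61 and 2.50 FPKM in Nogo+/+ muscle. It fell (log2 fold change -0.55, SE 0.13, adjusted p = 0.0474 in limma), all its values were low, and it passed in 1 of 6 fits that left out a library. The related *Dapk2* (-0.30, adjusted p = 0.0857), the neuronal kinase *Pnck* (-0.25, adjusted p = 0.225) and the phosphorylase kinase subunit *Phka2* (0.26, adjusted p = 0.168) did not pass in limma.

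Among 8 kinases that phosphorylate NFAT and favor its export from the nucleus, DYRK genes differed in opposite directions. *Dyrk2* had 9.66, 9.12 and 8.92 FPKM in the Nogo-/- muscles, against 21.8, 22.7 and 22.9 FPKM in the Nogo+/+ muscles. The groups were far apart relative to their spread, the ratio of the means was 0.411, and *Dyrk2* fell by 1.25 on the log2 scale (SE 0.06, adjusted p = 1.96e-05 in limma), passing in all 6 fits that left out a library. *Dyrk1b*, a DYRK gene known in skeletal muscle, had 33.0, 36.5 and 36.1 FPKM in Nogo-/-, against 27.1, 27.5 and 25.9 FPKM in Nogo+/+ muscle. It rose by 0.32 (SE 0.06, adjusted p = 0.0302 in limma), and passed in 1 of 6 fits that left out a library. *Dyrk1a* had 15.4, 16.6 and 16.3 FPKM in Nogo-/-, against 18.7, 17.8 and 18.7 FPKM in Nogo+/+ muscle, without overlap (-0.23, adjusted p = 0.0742 in limma).

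The NFAT factor genes themselves did not pass. *Nfatc3* had 6.49, 6.91 and 6.87 FPKM in Nogo-/-, against 7.51, 8.37 and 8.34 FPKM in Nogo+/+ muscle (log2 fold change -0.27, adjusted p = 0.0956 in limma). The groups overlapped neither for *Nfatc3* nor for *Nfatc2*, which was higher in Nogo-/- muscle, as for 25.9% of all genes in either direction. *Nfatc1* (-0.18, adjusted p = 0.343), *Nfatc2* (0.18, adjusted p = 0.286) and *Nfatc4* (-0.20, adjusted p = 0.37) did not share 1 direction. Of 13 calcineurin inhibitors, anchors and partners, 1 was lower, against 2.75% of all genes: *Lmcd1*, a LIM domain protein tied to calcineurin signaling in muscle. It had 88.6, 83.6 and 80.8 FPKM in Nogo-/-, against 91.9, 96.2 and 104 FPKM in Nogo+/+ muscle (log2 fold change -0.25, SE 0.05, adjusted p = 0.0389 in limma), and passed in 1 of 6 fits that left out a library. *Rcan2*, a relative of *Rcan1*, had 26.1, 25.2 and 28.1 FPKM in Nogo-/-, against 28.1, 32.1 and 32.7 FPKM in Nogo+/+ muscle (-0.26, adjusted p = 0.112 in limma) and did not pass, as was the case for the nuclear envelope anchor *Akap6* (-0.26, adjusted p = 0.149).

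Of 11 slow fiber genes known to respond to calcineurin, 1 was lower, against 2.75% of all genes. *Mb*, which encodes myoglobin, had 1734, 1645 and 1627 FPKM in Nogo-/-, against 1739, 1761 and 1715 FPKM in Nogo+/+ muscle. The deposited FPKM overlapped, and the call rested on the normalization and on the variance trend: the log2 fold change was -0.15 (SE 0.02, adjusted p = 0.00562 in limma), -0.15 without a trend (adjusted p = 0.181), -0.06 without quantile normalization (adjusted p = 0.33) and -0.10 with median scaling (adjusted p = 0.148). *Atp2a2*, the slow fiber calcium pump (-0.21, adjusted p = 0.176), *Tnni1*, slow troponin I (-0.15, adjusted p = 0.167), and *Myl3*, a slow myosin light chain (-0.09, adjusted p = 0.11), did not pass in limma. They are named because their p was the smallest after *Mb*. *Myh7*, of the same list, averaged 224 FPKM in both groups (-0.03, adjusted p = 0.843 in limma). The median log2 fold change of the 11 genes was -0.09. Of 7 MEF2 factors and class IIa histone deacetylases, the smallest p was that of *Mef2a* (-0.17, adjusted p = 0.127).

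Of 17 calmodulin-binding proteins, 1 was lower, against 2.75% of all genes. *Rrad*, a calmodulin-binding small GTPase, had 2.74, 3.98 and 1.50 FPKM in the Nogo-/- muscles, against 7.16, 7.89 and 8.12 FPKM in the Nogo+/+ muscles. It fell by 1.32 on the log2 scale (SE 0.21, adjusted p = 0.0116 in limma), and the adjusted p was 0.0665 without Sample 2 and 0.0617 without Sample 3. *Marcks* (-0.41, adjusted p = 0.0716), the actin-binding *Cald1* (-0.38, adjusted p = 0.078), the smooth muscle gene *Cnn1* (-0.63, adjusted p = 0.153) and the microtubule-binding *Camsap1* (-0.21, adjusted p = 0.165) did not pass in limma. *Cnn1* is also a marker on the smooth muscle and pericyte list, of which limma called 2 of 7 genes lower, against 2.75% of all genes. The sum of that list was 1019 to 1072 FPKM in Nogo-/- and 1066 to 1082 FPKM in Nogo+/+ muscle. It includes *Des*, whose product the authors describe as an intermediate filament specific to muscle, so the sum is not a level of smooth muscle alone. What the share of vessel or smooth muscle cells contributed to the values of the calmodulin-binding genes was not tested.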

How the data were processed

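The authors isolated polyadenylated RNA from gastrocnemius muscle of 3 Nogo-/- and 3 Nogo+/+ mice, prepared stranded libraries and sequenced them on an Illumina HiSeq instrument. Their methods and the submitters' processing notes name CASAVA 1.8.2, cutadapt 1.4.2 for adapters, STAR 2.6.1 for alignment to GRCm38.p6 and Cufflinks 2.2.1 for quantification. The deposited table gives FPKM, computed by the authors with Cufflinks, and holds only genes that reach an FPKM of 1 somewhere among the 6 libraries. The groups of the columns were read from the headings of the study's own expression table. The table's 6 columns of log2 values normalized by the authors were not used.

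FPKM of 12353 genes were quantile normalized here, and log2(FPKM + 1) was tested with limma 3.58.1 in R 4.3.3 (mean-variance trend, no covariates, Benjamini-Hochberg over all genes, threshold 0.05). Levels and shares are from the deposited FPKM, which are per transcript length. For shares, ratios and sums an exact two-sided permutation test was run in SciPy 1.17.1. The limma step was tested on simulated data. Depth was recovered from genes with 1 transcript, whose values are multiples of 1 fragment: at least 94.9% lay within 0.1 of a whole number, against 20% by chance. Counting errors cover counting only. Each library is 1 mouse.

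The 9 genes and all lists were chosen with earlier results of these data known. All 9 genes are named, and of each list every gene past the threshold and up to 4 more by smallest p, with *Myh7* added. For the gene among the 9 with the smallest p, the 3 genes with the highest r are named. Some genes of these families are not reported here. Alternatives were limma without a trend or with sample weights, a smaller pseudocount (0.1), a filter at a mean FPKM of 1, median scaling, no scaling beyond FPKM, and leaving out each library. RefSeq windows before the start were matched for 5 of the 9 genes, and the *Rcan1* ones are shown.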

Additional observations from a re-analysis of the deposited data

How the results depend on the processing

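No paired analysis was possible because the sample columns are not numbered as replicates. *Calm3* passed in limma with a pseudocount of 0.1 (log2 fold change -0.19, adjusted p = 0.0477), with a mean FPKM of at least 1 (-0.19, adjusted p = 0.0475) and with sample weights (-0.19, adjusted p = 0.0398), and in none of the 6 fits that left out a library (-0.22 to -0.16). *Rcan1* passed without Sample 4 (-0.41) and ranged between -0.41 and -0.11. Values near 0 changed sign: *Camk2b* to 0.019 without Sample 4 (range -0.14 to 0.019), *Camk2g* to 0.039 without quantile normalization, to 0.00085 with sample weights and to between -0.033 and 0.031 with a library left out, and *Ppp3cb* to 0.021 without quantile normalization and to between -0.064 and 0.026 with a library left out. With a library left out, the *Camk2g* share differed by -0.442 to 0.436 percentage points and the *Ppp3ca* share by -1.44 to 0.0125 points. None of these sign changes was past the threshold, and the cause was not tested.

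Limma called 573 genes, and 188 to 434 with a library left out, where fewer samples enter each fit. Of the 233 higher and 340 lower calls, 40.7% were higher, against 56.3% (302 higher and 234 lower) without quantile normalization, which moved the median of all genes to 0.03. Without a trend the counts were 164 and 257. Of the listed genes other than the 9, 2 were higher (1 without a trend, and 1 to 2 with a library left out) and 5 lower (2 without a trend, 2 without quantile normalization, and 2 to 5 with a library left out). *Dapk1* lost its call without a trend (adjusted p = 0.0619), with a pseudocount of 0.1 (0.0508) and without quantile normalization (0.0849), *Lmcd1* without a trend (0.108) and without quantile normalization (0.0979), *Dyrk1b* without a trend (0.0658) and *Mb* without a trend (0.181) and under both other scalings. *Mylk4* and *Dyrk2* passed under every alternative run. With 3 mice a group, the 95% intervals of *Calm2*, *Camk2a*, *Camk2b*, *Camk2g*, *Ppp3ca*, *Ppp3cb*, *Ppp3r1* and *Rcan1* hold changes in level in both directions. These intervals are not adjusted over genes and are not limits of detection. *Calm3*, whose interval lies wholly on the lower side, still had an adjusted p of 0.0517 in limma.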
